A study of Mus musculus with 16 samples.

Results

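The genes described here are the core cohesin subunits Smc1a, Smc3, Rad21, Stag1 and Stag2, the cohesin loader Nipbl, Ctcf, and the condensin subunits Smc2, Smc4 and Ncapd2. Their probe sets were taken as those whose platform annotation names 1 of these 10 genes and no other gene, which gave 33 of the 45101 probe sets of the array. Every gene had at least 2 of them, with 6 for Stag1 and 5 each for Nipbl and Smc2. A probe set is a group of short oligonucleotides that reads one stretch of a transcript, and its position along the transcript was not used here.

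Cohesin and condensin are ring-shaped ATPase complexes that shape chromosomes. Cohesin, built on the paired subunits Smc1a and Smc3, holds sister chromatids together and extrudes chromatin loops, many of which end where Ctcf, a zinc finger protein, is bound to DNA. Condensin, built on Smc2 and Smc4, compacts chromosomes for mitosis. Embryonic stem cells divide fast and use both complexes in every cycle, and cohesin and Ctcf also organise the contacts between enhancers and promoters in these cells.

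The study asked how far PCR amplification of cDNA from a single-cell amount of RNA changes measured expression. All 16 arrays carried a single preparation of total RNA from E14tg2a, a mouse embryonic stem cell line. In the nonamplified group, 5 µg of undiluted RNA was labelled on each of 8 arrays, and in the amplified group RNA diluted to 10 pg was amplified in a separate reaction for each of 8 arrays. The labels call the method V1V3 and the replicates technical, so p-values measure the spread between technical repeats of one RNA and say nothing of other cultures. The deposited values are linear intensities that go no lower than 1, and how arrays were scaled to one another is not given in the sources used here. The median of an array ran from 33.9 to 36.7 on amplified arrays and from 49.7 to 53.8 on nonamplified arrays. All 10 stem cell markers examined lay above the median of the array on all 16 arrays, while of 8 fibroblast feeder markers 1 did so on all 8 nonamplified arrays (Col1a2) and another 1 on all 8 amplified arrays (Postn). The summed intensity of the feeder markers was 261 to 351 on nonamplified and 197 to 338 on amplified arrays, against 31547 to 33001 and 38521 to 41103 for the stem cell markers. Single stem cell markers went both ways: the mean of Utf1 rose from 1814 to 8761 after amplification, while Lin28a fell from 1978 to 96.6 and Nanog from 1776 to 276.

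After amplification most probe sets of these genes read lower, and Smc1a, Rad21 and Smc4 had probe sets called in both directions. Of 32 tested probe sets, 5 were higher on amplified arrays, 19 lower and 8 not called (limma with Benjamini-Hochberg adjustment over all tested probe sets, threshold 0.05). The 24 calls make 75% of the 32, where 57.5% of all 27022 tested probe sets were called. The 5 higher calls make 15.6%, against 24.7% of all tested probe sets, and the 19 lower calls 59.4%, against 32.8%. The median log2 fold change was -1.01 over these 32 probe sets and -0.17 over all tested ones. Fold changes are of log2(intensity + 16), which understates the change of dim probe sets. The filter on low values keeps probe sets by their mean over all arrays. It left out 1 Nipbl probe set and kept 8 probe sets whose amplified mean alone was at or under its level, so these 8 had to be lower, and the counts describe the probe sets that passed.

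**Figure D1:**
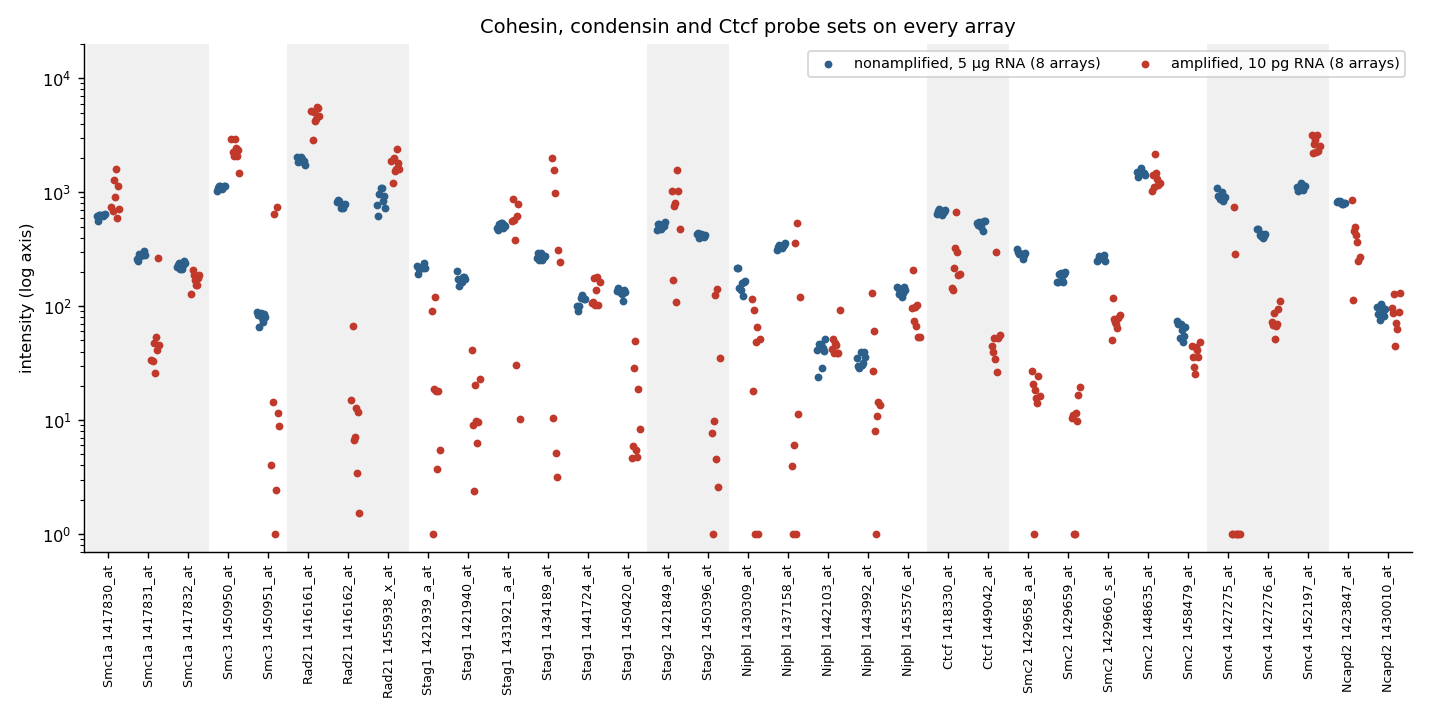
Intensity (log axis) of each of the 33 probe sets of the 10 genes on the 8 nonamplified arrays (blue) and the 8 amplified arrays (red), 1 point per array, with shading by gene. Blue points lie close together for each probe set, while red points lie above them for some probe sets of a gene and far below for others, down to the lowest listed intensity of 1.

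The values did not overlap between groups for 17 of the 32 probe sets (53.1%), 4 with the amplified arrays higher and 13 with them lower, where 33.6% of all tested probe sets did not overlap. The 13 include all 8 probe sets that the filter kept through their nonamplified values alone, so the direction of those 8 was fixed. How many such probe sets are among all tested ones was not counted. When each gene was read from the probe set brightest on nonamplified arrays, 4 of the 10 genes were higher (Smc1a, Smc3, Rad21 and Smc4), 3 were lower (Nipbl, Ctcf and Ncapd2) and 3 did not pass (Stag1, Stag2 and Smc2). Over all 13660 genes so chosen, 23.8% were higher and 29.9% lower. Under quantile normalization Smc1a and Smc3 were not called, which left 2 higher. Smc2 was called lower there and when scaled on the hybridization controls. Of the other 22 tested probe sets of these genes, 1 was higher, 16 were lower and 5 did not pass, with a median log2 fold change of -1.96. Over all 9169 such probe sets, 21.4% were higher and 40% lower, with a median of -0.36. The 8 probe sets kept through nonamplified values alone are all among the 16 lower ones and weigh on the median of -1.96. The genes called in both directions make 3 of 10, against 19.9% of the 5605 genes with at least 2 tested probe sets. Smc1a is among the 3 through a higher call that was lost under quantile normalization and on the hybridization controls. Rad21 is among them through the lower call of a probe set that is one of those 8. As deposited the median of all tested probe sets lay at -0.17, and other scalings of the arrays moved it to -0.029 (quantile normalization), 0.24 (centring on the median), 0.045 (scaling on the brighter 50% of probe sets) and -0.59 (scaling on the hybridization controls).

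**Figure D2:**
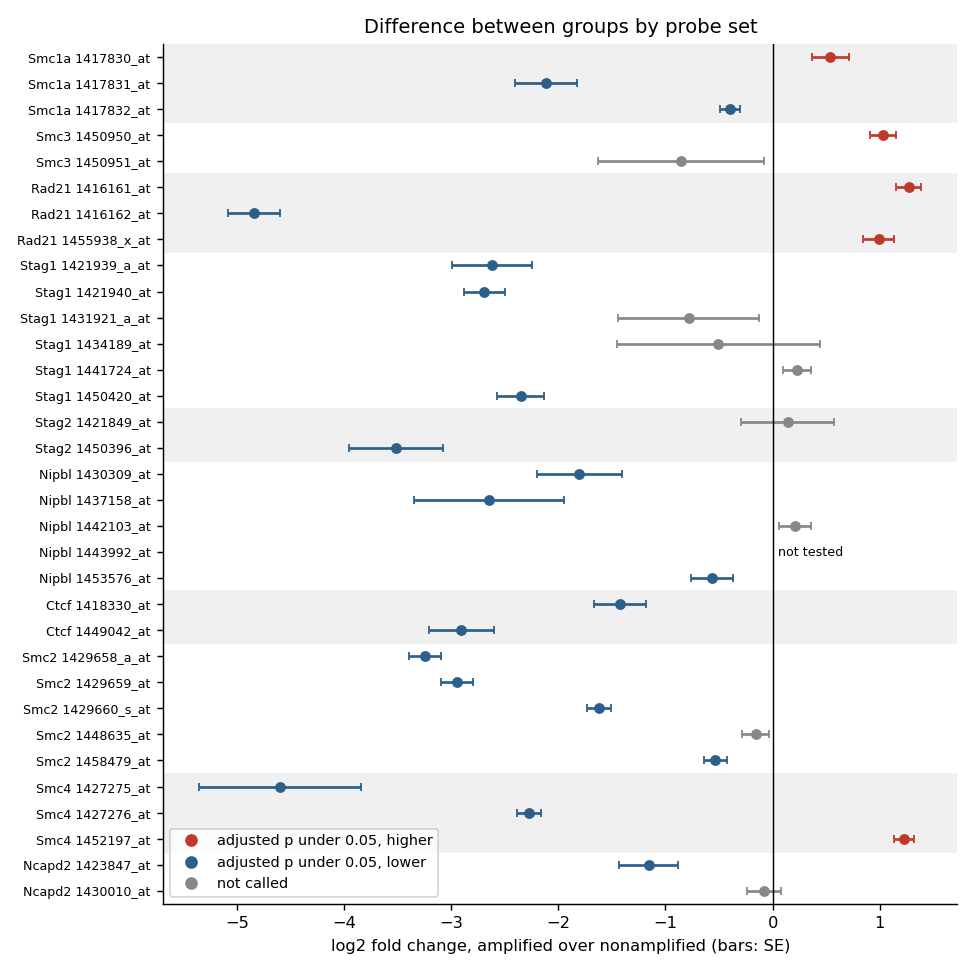
Log2 fold change of amplified over nonamplified arrays for each probe set (points) with its standard error (bars). Red points were called higher, blue points lower and grey points were not called. Rad21 and Smc4 each hold a probe set above 1 and another below -4.

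Smc1a and Smc3 are the ATPase subunits that form the arms of the cohesin ring. The brightest Smc1a probe set, 1417830_at, measured 559 to 640.3 (median 626) on nonamplified arrays and 591 to 1609 (median 823) on amplified arrays. All but 1 of the amplified arrays lay above every nonamplified array. It was higher after amplification as deposited, with a log2 change of 0.54 (SE 0.18, limma adjusted p = 0.0151), but its value was -0.0024 under quantile normalization (adjusted p = 0.992) and 0.12 on the scale of the hybridization controls (adjusted p = 0.677). Smc1a probe set 1417831_at went the other way, from a range of 251 to 303 (median 279.9) to a range of 25.99 to 263 (median 43.1) (log2 fold change -2.12, SE 0.29, limma adjusted p = 9.28e-06). On amplified array 7 it read 263, inside the nonamplified range, and the other 7 amplified arrays were all below it. The remaining Smc1a probe set, 1417832_at, fell on all 8 amplified arrays by a small amount (228 ± 12.7 to 171 ± 25.2, mean ± SD of n = 8 arrays each, log2 change -0.40), a call that was lost at 0.0100 under median centring and at -0.18 when scaled on the brighter 50% of probe sets (limma adjusted p = 0.940 and 0.111).

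Smc3 read higher on all 8 amplified arrays at one probe set and lay on both sides of the nonamplified range at the other. Probe set 1450950_at measured 1028 to 1141 (median 1129) without amplification and 1482 to 2939 (median 2323) after it. The groups did not overlap, with a log2 change of 1.03 (SE 0.12, limma adjusted p = 1.26e-06) that shrank to 0.25 under quantile normalization (adjusted p = 0.115). Probe set 1450951_at read only 65.6 to 88.4 (median 82.6) on nonamplified arrays. On amplified arrays 3 and 6 it read 646 and 739, far above all nonamplified arrays, and on the other 6 it was between 1 and 14.3, below all of them. The difference of the group means (-0.85, SE 0.78, limma adjusted p = 0.37) did not pass. Both Smc3 probe sets were annotated to the same GenBank entry, and their fold changes differed by 1.88 on the log2 scale (exact 2-sided permutation test, adjusted p = 0.0893 over all 14813 pairs of tested probe sets of one gene).

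Rad21, the kleisin subunit that closes the ring and is cut by separase at anaphase, was called higher at 2 probe sets and lower at the third. Probe set 1416161_at rose from a range of 1733 to 2043 (median 1889.9) to a range of 2890.5 to 5624 (median 4854) without overlap. Its log2 fold change was 1.27 (SE 0.12, limma adjusted p = 1.04e-07), and 0.41 under quantile normalization and 1.68 under median centring. Probe set 1455938_x_at rose too, from 873 ± 166 to 1751 ± 352 (mean ± SD of n = 8 arrays each, log2 change 0.99), but was not called under quantile normalization (0.28, limma adjusted p = 0.119). Probe set 1416162_at, annotated to the same GenBank entry as 1416161_at, went to low intensities. It measured 722 to 846 (median 781) on nonamplified arrays and 1.53 to 67.6 (median 9.43) on amplified arrays, where array 2 read 67.6 and the other 7 read 1.53 to 15.00. The log2 fold change was -4.84 (SE 0.24, limma adjusted p = 3.09e-11), and -6.24 or -3.44 with a pseudocount of 1 or 64 in place of 16. The fold changes of 1416161_at and 1416162_at differed by 6.11 on the log2 scale, and by 7.52 or 4.69 with a pseudocount of 1 or 64, with adjusted p = 0.000472 by exact permutation, from the smallest p (0.000155) that the 12870 regroupings of the arrays can give.

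Stag1 and Stag2 are alternative subunits, one of which binds each cohesin ring through Rad21. Among the 6 Stag1 probe sets, 3 fell and 3 were not called. Probe sets 1421939_a_at, 1421940_at and 1450420_at, all annotated to 1 GenBank entry, fell together, with log2 fold changes of -2.62, -2.69 and -2.35 (limma adjusted p = 1.36e-05, 2.38e-09 and 8.64e-08). The brightest of them read 193 to 238 (median 215) on nonamplified arrays and 1 to 122 (median 18.04) on amplified arrays. The fold changes of these probe sets differed from one another by 0.071 to 0.34 on the log2 scale, and none of these 3 differences passed (exact permutation, adjusted p = 0.391 to 0.878).

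The brightest Stag1 probe set without amplification, 1431921_a_at, read 466 to 539 (median 512). On amplified arrays 5 and 8 it read 30.6 and 10.1, while the other 6 read 382 to 864. The difference between group means did not pass (-0.78, SE 0.66, limma adjusted p = 0.331). Stag1 probe set 1434189_at was the most variable of all 32, with an SD of 2.84 over amplified arrays against 0.079 over nonamplified arrays on the log2 scale. It read 252 to 295 (median 273) on nonamplified arrays. On amplified arrays 1, 3 and 4 it read 2012, 1556 and 983, on arrays 7 and 8 309.5 and 245, and on arrays 2, 5 and 6 10.5, 5.13 and 3.19. The values of this probe set thus spread on both sides of the nonamplified range, and its mean difference of -0.51 (SE 0.95, limma adjusted p = 0.677) did not pass. Probe set 1441724_at did not pass (110.3 ± 11.4 against 134 ± 33.8, mean ± SD of n = 8 arrays each, log2 change 0.23, limma adjusted p = 0.148), but was called higher under 3 of the 4 other scalings (0.44 to 0.63) and lay at -0.19 when scaled on the hybridization controls.

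Stag2 was not called at its brighter probe set and fell at the other. Probe set 1421849_at read 470.2 to 547 (median 505) without amplification and 109 to 1553 (median 777) after it. Of the 8 amplified arrays 5 were above and 2 below all nonamplified arrays, the low ones being array 2 (169) and array 5 (109), and the mean difference of 0.14 (SE 0.43, limma adjusted p = 0.803) had no settled sign, at -0.066 without amplified array 6 and -0.25 under quantile normalization. Probe set 1450396_at, from the same GenBank entry, fell from a range of 397 to 441 (median 421) to a range of 1 to 141 (median 8.75). Arrays 4 and 6 kept 125 and 141, and the other 6 read 1 to 35.2. Its log2 fold change was -3.51 (SE 0.44, limma adjusted p = 2.84e-06), and the fold changes of the Stag2 pair differed by 3.66 (exact permutation, adjusted p = 0.000472).

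Nipbl, which with Mau2 loads cohesin onto DNA and drives loop extrusion, was called lower at 3 of its 4 tested probe sets and higher at none as deposited. Probe set 1437158_at read 312 to 356 (median 338) without amplification. On amplified arrays 4 and 6 it read 356 and 533, inside and above the nonamplified range, on array 8 121, and on the other 5 it lay between 1 and 11.4. The log2 fold change was -2.65 (SE 0.70, limma adjusted p = 0.00398), and -3.12 without array 6. Probe set 1430309_at fell from a range of 124 to 218 (median 161) to a range of 1 to 116 (median 50.2) (log2 fold change -1.80, SE 0.39, limma adjusted p = 0.000883). Its amplified arrays all lay below the nonamplified ones, with arrays 4 and 7 at an intensity of 1. Probe set 1453576_at had a log2 change of -0.57 (limma adjusted p = 0.0195) that did not pass under quantile normalization, centring on the median or scaling on the brighter 50% (-0.16 to -0.35). Probe set 1442103_at was dim in both groups, with a difference of 0.21 (limma adjusted p = 0.26) that was called higher under those same 3 scalings (0.42 to 0.62) and turned to -0.21 on the hybridization controls. The untested probe set, 1443992_at, read 28.5 to 39.5 (median 33.7) on nonamplified arrays and 1 to 129.5 (median 14.1) on amplified arrays.

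Ctcf fell at both of its probe sets, the only gene of the 10 for which every tested probe set was called lower, and both stayed called under all 4 other scalings (log2 fold changes of -1.02 to -1.85 and -2.50 to -3.32). Probe set 1418330_at read 632 to 708 (median 678) without amplification and 138 to 675 (median 205) after it. Array 5 kept a nonamplified level (675), and the other 7 amplified arrays were below all nonamplified arrays (log2 fold change -1.43, SE 0.24, limma adjusted p = 8.50e-05). Probe set 1449042_at, from the same GenBank entry, fell from a range of 461 to 559 (median 542) to a range of 26.6 to 296 (median 48.3) without overlap (log2 fold change -2.91, SE 0.30, limma adjusted p = 3.48e-07). Its highest amplified value, 296, was again on array 5, while the other 7 arrays read 26.6 to 55.6. The fall was deeper at 1449042_at by 1.48 on the log2 scale (exact permutation, adjusted p = 0.000472).

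**Figure D3:**
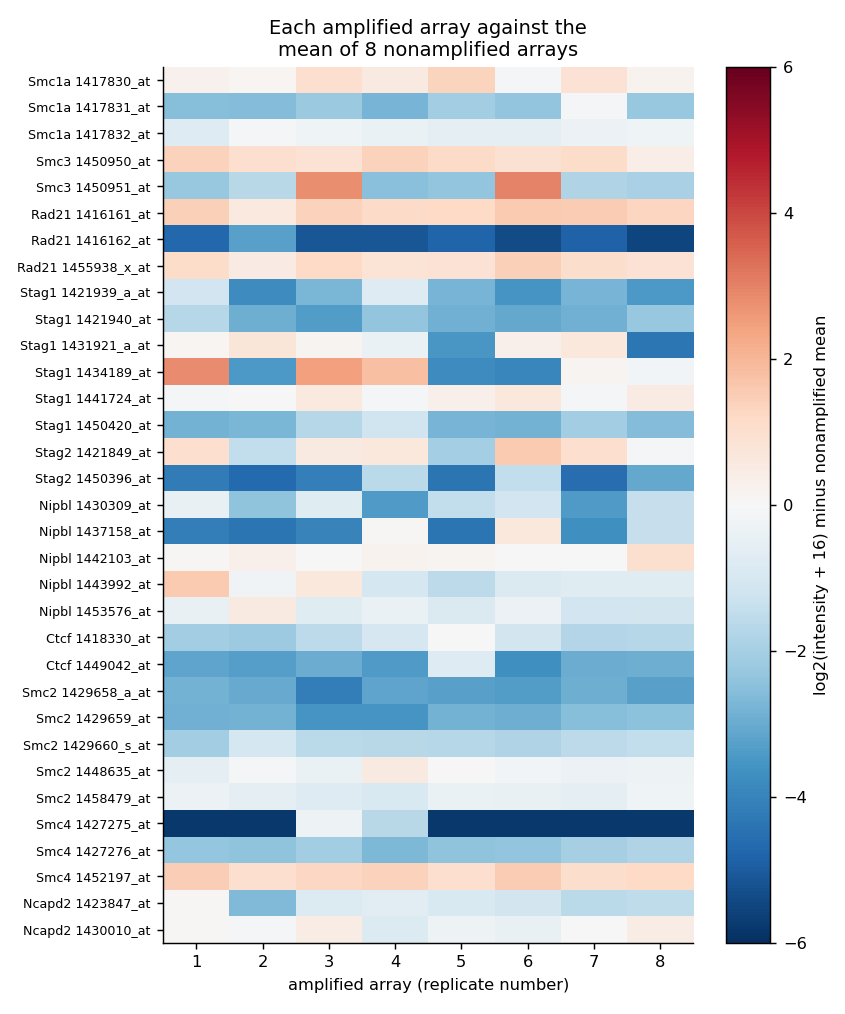
Distance of each amplified array (columns, by replicate number) from the mean of the 8 nonamplified arrays for each of the 33 probe sets (rows), in log2(intensity + 16). Red is higher and blue lower. Some rows are blue on every array (Smc2 1429658_a_at), some red on every array (Rad21 1416161_at), and some change from array to array (Stag1 1434189_at, Nipbl 1437158_at).

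Smc2 and Smc4 are the ATPase subunits shared by condensin I and condensin II. At its brightest probe set, 1448635_at, Smc2 read 1369 to 1639 (median 1479.9) without amplification and 1022 to 2171 (median 1260.1) after it. The ranges overlapped and the difference did not pass (-0.16, SE 0.13, limma adjusted p = 0.312). Without amplified array 4, the highest of the group at 2171, it was called lower (-0.26, limma adjusted p = 0.0216), as it was under quantile normalization (-0.90) and when scaled on the hybridization controls (-0.58). Smc2 probe sets 1429658_a_at and 1429659_at fell on all 8 amplified arrays, from a range of 259.5 to 316 (median 287) to a range of 1 to 27.2 (median 17.2) and from a range of 164 to 200.4 (median 179.7) to a range of 1 to 19.5 (median 10.7). Their log2 fold changes were -3.24 and -2.94 (limma adjusted p = 1.24e-11 and 3.08e-11), and with a pseudocount of 1 or 64 in place of 16 they were -4.27 or -2.12 and -4.41 or -1.72. Another probe set of the same GenBank entry, 1429660_s_at, fell less, from 266 ± 11.3 to 77.04 ± 19.5 (mean ± SD of n = 8 arrays each, log2 change -1.62), and its difference from 1429658_a_at had an adjusted p = 0.000472 (exact permutation). Probe set 1458479_at, dim in both groups, had a log2 change of -0.53 that did not pass under quantile normalization (-0.13), centring on the median (-0.13) or weights per group (limma adjusted p = 0.102).

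Smc4 rose at probe set 1452197_at, from a range of 1029 to 1195 (median 1126) to a range of 2223 to 3203 (median 2618). The groups did not overlap, with a log2 change of 1.23 (SE 0.093, limma adjusted p = 6.13e-09) and 0.45 to 1.64 under the other scalings, all called. Probe set 1427275_at stood at the lowest listed value on most amplified arrays. It read 845 to 1082 (median 915) without amplification. On amplified arrays 3 and 4 it read 739 and 285, and on the other 6 it stood at 1. The log2 fold change was -4.60 (SE 0.75, limma adjusted p = 5.85e-05), -5.21 without array 3 and -5.02 without array 4, and -6.90 or -3.18 with a pseudocount of 1 or 64. Probe set 1427276_at, from the same GenBank entry, fell on all 8 arrays from a range of 393 to 480.2 (median 425) to a range of 51.97 to 111 (median 71.3) (log2 fold change -2.27, SE 0.11, limma adjusted p = 3.42e-11). The fold changes of 1427275_at and 1452197_at differed by 5.82 on the log2 scale, and by 8.14 or 4.37 with a pseudocount of 1 or 64 (exact permutation, adjusted p = 0.000472).

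Ncapd2, a HEAT-repeat subunit found in condensin I, fell at probe set 1423847_at, from a range of 781 to 840.1 (median 809) to a range of 114 to 862 (median 395) (log2 fold change -1.16, SE 0.28, limma adjusted p = 0.00174). Array 1 was above all nonamplified arrays and the other 7 were below, the lowest being array 2. The dimmer probe set, 1430010_at, read 90.9 ± 9.91 and 88.7 ± 29.9 (mean ± SD, n = 8 each), a difference of -0.079 that did not pass (limma adjusted p = 0.702). It was called lower when scaled on the hybridization controls (-0.50) and lay at 0.14 to 0.33 under the other scalings.

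Over the 10 genes, 29 of 44 pairs of tested probe sets of one gene differed in their fold change (exact 2-sided permutation test over the arrays, adjusted p under 0.05 over the pairs of all genes), where 57.4% of all 14813 such pairs differed. The median absolute difference was 1.84 on the log2 scale against 1.04 over all pairs, and 19 of the 44 differed by at least 2, as did 23.1% of all pairs. A constant added to all log2 values of an array cancels in this test. Of 11 pairs annotated to the same GenBank entry, 6 differed, against 54.8% of all 3206 such pairs, with a median of 1.48 against 1.02. Most of the 19 pairs, and most of these 6, hold a probe set that the filter kept through nonamplified values alone. The direction of those 8 probe sets was fixed, and they weigh on both medians. How many such pairs are among the pairs of all genes was not counted.

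The study also compared the amplified arrays with each other, so the spread within a group was examined too. The SD of log2 values was larger on amplified arrays for all 32 tested probe sets, with a median of 0.54 (range 0.20 to 2.84) against 0.080 (0.039 to 0.28) on nonamplified arrays. How many of all tested probe sets had the larger SD on amplified arrays was not counted. The median ratio of amplified to nonamplified SD was 5.60 over the 32, against 4.29 over all tested probe sets. Absolute deviations from the group mean were larger on amplified arrays for 17 of the 32 probe sets (53.1%; limma, adjusted p under 0.05), where 52.8% of all tested probe sets were called. With deviations from the group median 4 of the 32 were called, where 30.9% of all tested probe sets were. The widest spreads were those of Stag1 1434189_at (adjusted p = 0.000397), Smc3 1450951_at (0.00243), Smc4 1427275_at (0.00263), Nipbl 1437158_at (9.97e-05) and Stag1 1431921_a_at (0.00309), in limma on deviations from the group mean. With only 4 of the 32 called on deviations from the group median, not all of these calls hold there. These 5 probe sets, with log2 SDs of 1.97 to 2.84, each read far lower on some amplified arrays than on others. The highest amplified reading of Smc4 1427275_at was 739, below all nonamplified arrays, while the other members of this group reached nonamplified levels or above. The lowest reading of Stag1 1431921_a_at was 10.1, and the others came closer to the lowest listed intensity. The steadiest were Smc1a 1417832_at, Smc4 1452197_at and Smc2 1458479_at, with log2 SDs of 0.20, 0.21 and 0.22. The Spearman rho between nonamplified mean and amplified SD was -0.040 over the 32 probe sets and 0.27 over all tested ones, given as a description, since probe sets share arrays and genes.

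**Figure D4:**
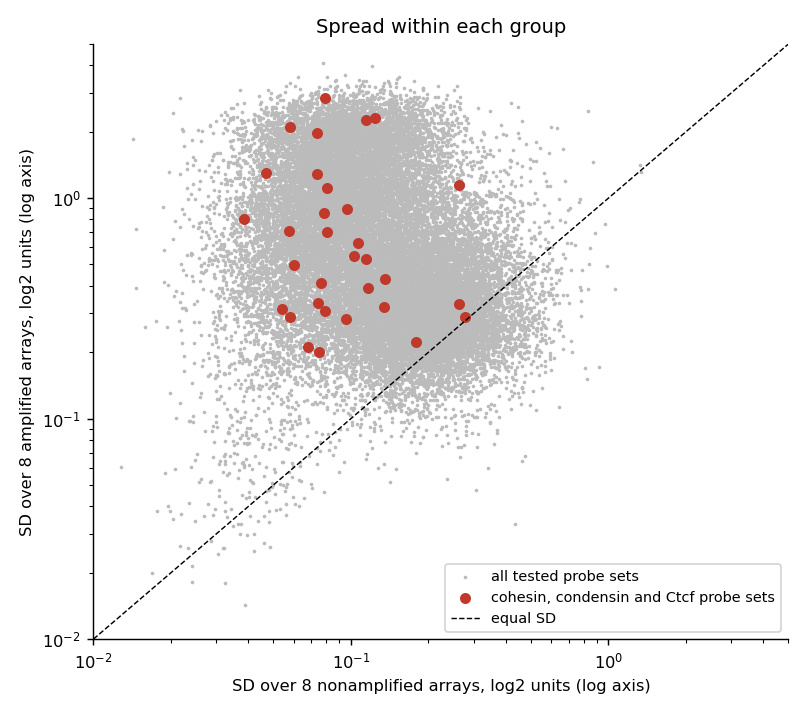
SD of log2(intensity + 16) over the 8 nonamplified arrays (horizontal, log axis) and over the 8 amplified arrays (vertical, log axis). Grey points are all 27022 tested probe sets and red points the 32 of cohesin, condensin and Ctcf. All red points lie above the dashed line of equal SD, from close to it (Rad21 1455938_x_at) to far above.

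Losses on single arrays were counted as values under the 25th percentile of an array for probe sets in the upper 50% of the nonamplified mean, which held 31 of the 33 probe sets. There were 54 such losses among 248 values on amplified arrays (21.8%), where all probe sets in that upper 50% had 14.5%. Nonamplified arrays, whose high mean chose those probe sets, had 0 such values for these genes and 0.017% over all, a low share that the choice nearly fixes. The amplified losses were spread over 13 of the 31 probe sets and every amplified array, with 4 on array 4 and 9 on array 5 as the extremes. Rad21 1416162_at, Smc4 1427275_at and Smc2 1429659_at were lost on 6 of 8 arrays each, and no probe set was lost on all 8. For 9 of the 32 tested probe sets, amplified arrays lay both above and below the whole nonamplified range, as they did for 44% of all tested probe sets. The amplified arrays with the highest readings differed between genes: arrays 4 and 6 for Nipbl 1437158_at and Stag2 1450396_at, arrays 3 and 6 for Smc3 1450951_at, arrays 3 and 4 for Smc4 1427275_at, and array 5 for both Ctcf probe sets. Each array's median distance from the nonamplified mean over the 32 probe sets was negative, from -0.65 on array 1 to -1.91 on array 2.

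**Figure D5:**
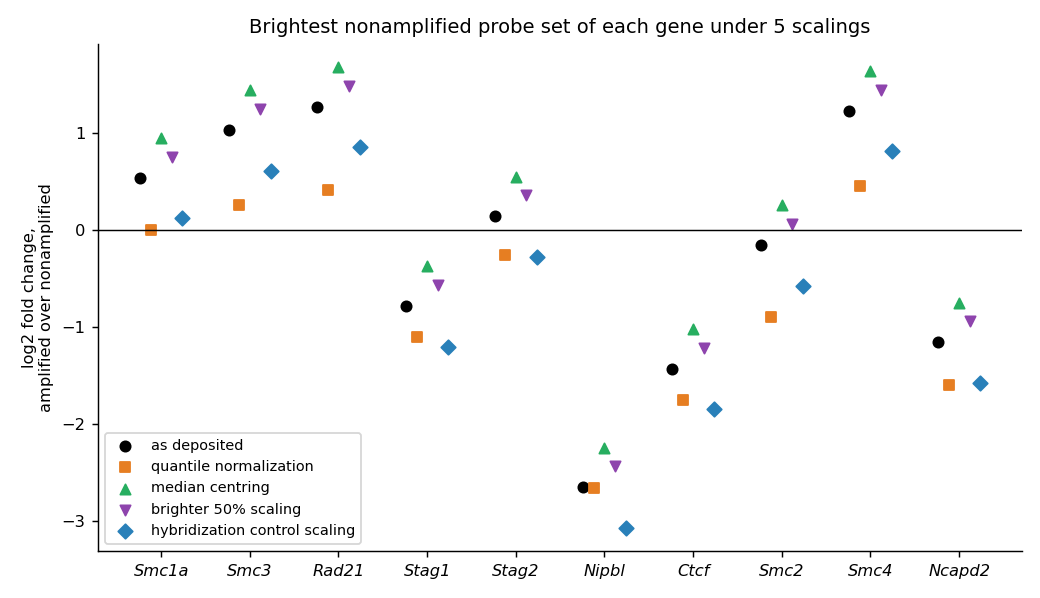
Log2 fold change of the brightest nonamplified probe set of each gene with the values as deposited and under 4 other scalings of the arrays. Rad21, Smc3 and Smc4 stay above 0 and Nipbl, Ctcf, Ncapd2 and Stag1 below 0 under all 5, while Stag2 and Smc2 change sign and Smc1a comes to -0.0024 under quantile normalization.

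Related genes were examined in 6 lists, with each gene read from the probe set brightest on nonamplified arrays. Of 29 tested genes, 12 were higher, 4 lower and 13 did not pass, with a median log2 fold change of 0.11 against -0.15 over all 13660 genes, of which 23.8% were higher and 29.9% lower. The balance rests on the scaling: 7 were higher and 8 lower under quantile normalization, and 5 and 7 when scaled on the hybridization controls. Among 8 cohesin regulators 3 were higher and 2 lower. Pds5a, which binds the ring and sets its release, fell from 467 ± 30.2 to 71.5 ± 19.6 (mean ± SD of n = 8 arrays each, log2 change -2.49, limma adjusted p = 4.11e-11). Esco2, which acetylates Smc3 during replication, fell from 698 ± 51.7 to 263 ± 93.4 (mean ± SD of n = 8 arrays each, log2 change -1.43). Their other probe sets had -0.73 and -0.40.

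Of 4 genes of cohesion protection and cleavage, 2 were higher and 0 lower. Espl1, the protease separase that cuts Rad21, rose from 720.1 ± 33.8 to 2905 ± 1269, and Pttg1, its inhibitor securin, from 985 ± 38.8 to 3779 ± 1832 (mean ± SD of n = 8 arrays each, log2 changes 1.84 and 1.71, limma adjusted p = 9.68e-06 and 0.000216). The other tested probe sets of Pttg1 had log2 fold changes of -0.25 and -0.93. Of 5 other condensin subunits, 2 were higher and 0 lower. Ncaph, the kleisin of condensin I, and Ncapd3, a HEAT-repeat subunit of condensin II, had log2 fold changes of 0.97 and 0.93, neither of which passed under quantile normalization (0.40 and 0.40) or on the hybridization controls (0.55 and 0.51). The other probe sets had -0.27 for Ncaph and -3.01 and -0.92 for Ncapd3.

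In the Smc5/6 complex, a relative of cohesin and condensin that acts in DNA repair, 1 of 6 tested genes was higher and 2 were lower. Smc6 rose from 585 ± 103 to 3459 ± 332 (mean ± SD of n = 8 arrays each, log2 change 2.54, limma adjusted p = 3.58e-12) where it was brightest, and its 3 remaining probe sets had -1.59 to -2.66. Nsmce1, another subunit, fell from 271 ± 9.97 to 10.5 ± 11.9 (mean ± SD of n = 8 arrays each, log2 change -3.53, and -5.07 or -2.18 with a pseudocount of 1 or 64), while its other probe set had 2.41. Among 4 tested partners in chromosome architecture, 3 were higher and 0 lower, with Smchd1, a noncanonical SMC protein of X inactivation, at 1.41 and Top2a, the mitotic topoisomerase, at 0.75, the latter turning to -0.14 under quantile normalization. Other probe sets had 0.08 for Smchd1 and 1.36 and -1.40 for Top2a. Of 2 tested meiotic cohesin genes 1 was higher, Rec8, at 37.9 ± 8.63 and 72.6 ± 57.7 (mean ± SD of n = 8 arrays each, log2 change 0.57, limma adjusted p = 0.0447). That call was lost without any 1 of amplified arrays 1, 3 and 7 or nonamplified arrays 1, 2, 3, 4, 5, 6 and 8 (limma adjusted p = 0.0511 to 0.0793) and with the replicate number as a block (0.0677).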

How the data were processed

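The intensity of every probe set on every array was used as deposited by the authors. How probes were summarised and arrays scaled is not given in the sources used here. Of 45101 probe sets, 64 Affymetrix controls were left out of the tests. Gene names came from the platform annotation, updated by gene identifier from RefSeq (GRCm38.p6), with a single symbol for 34945 probe sets, several for 932 and none here for 9160.

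Groups came from the sample titles. Values were taken as log2(intensity + 16). Tests used the 27022 probe sets whose mean of the 16 arrays passed the 40th percentile, near an intensity of 33.7. The group comparison was limma 3.58.1 (lmFit, eBayes) under R 4.3.3, 2-sided and with no covariate, and p-values were Benjamini-Hochberg adjusted over those probe sets. The same fit on absolute deviations from the group mean, times the square root of n/(n - 1), compared spreads. Pairs of probe sets of a gene were compared by exact permutation over the arrays, with p-values adjusted over all 14813 such pairs in the table. This adjustment was chosen after seeing the data, in place of the planned one over the 44 pairs of these genes. On simulated data of 27022 probe sets, the fit called 61 of 100 log2 changes of 1, 80 of 100 log2 changes of 2 and 29 of 26822 unchanged probe sets. The 29 false calls stand beside the 61 and 80 true ones. Only 200 probe sets were changed there, with normal noise, while 57.5% were called in the deposited data and some values stand at 1. The error rate of the calls reported here was thus not measured. For spreads, 57.0% of 13511 probe sets with a 4-fold SD were called and 1.71% of the 13511 others.

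The members and lists were chosen with earlier results of these data known. Named probe sets were all those of the 10 genes, with values per array for the brightest of each gene on nonamplified arrays and for those that differed in sign or by at least 2 on the log2 scale. From each list the 2 called genes of the largest absolute log2 fold change were named. The lists were cohesin regulators, cohesion protection and cleavage, meiotic cohesin, other condensin subunits, the Smc5/6 complex and chromosome architecture partners, with stem cell and feeder markers as a check. Alternatives were pseudocounts of 1 and 64, 4 other scalings, no filter or a 60th percentile filter, weights per group, the replicate number as a block, leaving out each array, other dropout percentiles, the group median for spreads, and the probe set of the highest mean over 16 arrays. Detection calls and scan batches were not used. The number of arrays limits the precision. Figures were drawn with matplotlib 3.10.9.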

Additional observations from a re-analysis of the deposited data

Results flagged for a closer look

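Within the 8 arrays of a group, 1 array stood far from the other 7 in 9 of 64 sets of values, by the gap to its nearest neighbour over the range on the log2 scale. For independent sets of normal values this rule flags about 1 in 20. The sets here share arrays and genes, and some values stand at the lowest listed intensity. That rate therefore cannot show whether more sets were flagged than by chance.

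On amplified arrays, Smc1a 1417831_at read 263 on array 7 (median of the others 41.0), Ctcf 1449042_at 296 on array 5 (44.5), and Nipbl 1442103_at 92.9 on array 8 (42.4). Array 2 stood apart at 3 probe sets, with Rad21 1416161_at low at 2890.5 (median of the others 5052), Rad21 1416162_at high at 67.6 (7.06) and Nipbl 1453576_at high at 206 (74.1). Smc2 1429658_a_at was at 1 on array 3 (18.3). On nonamplified arrays, Smc1a 1417830_at read 559 on array 2 (median of the others 626) and Stag1 1450420_at 109.9 on array 6 (137).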

How the results depend on the processing

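The counts of 5 higher and 19 lower probe sets stayed at 4 to 7 and 15 to 21 under every alternative, with 15 where fewer probe sets were tested (60th percentile filter). The probe sets behind the counts changed most under quantile normalization, where 2 of the 5 higher and 17 of the 19 lower ones stayed called. Under centring on the median and scaling on the brighter 50%, all 5 higher ones stayed among 7 called. Of the 19 lower ones 16 and 17 stayed there. On the hybridization controls 4 of the 5 higher ones stayed, and all 19 lower ones stayed among 21 called. Adjusted over the 44 pairs alone, 34 in place of 29 pairs differed. Quantile normalization gave 2 higher genes in place of 4 and called Smc2 lower at its brightest probe set. It gave 7 higher and 8 lower related genes in place of 12 and 4. Scaling on the hybridization controls gave 5 and 7 related genes. Deviations from the group median gave 4 wider probe sets in place of 17, and a 10th percentile gave 23 losses in place of 54. The cause of these changes was not tested.

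Signs turned mostly for differences near 0. Under quantile normalization this held for Smc1a 1417830_at (-0.0024), Stag2 1421849_at (-0.25), Ncapd2 1430010_at (0.25) and Top2a (-0.14). With centring on the median it held for Smc1a 1417832_at (0.0100), Smc2 1448635_at (0.25) and Ncapd2 1430010_at (0.33), and with scaling on the brighter 50% for the latter pair (0.060 and 0.14). Scaled on the hybridization controls, Stag1 1441724_at (-0.19), Stag2 1421849_at (-0.28) and Nipbl 1442103_at (-0.21) turned. Leaving out an array turned Stag2 1421849_at (-0.066 to 0.45 over single arrays left out, the lowest without amplified array 6) and Ncapd2 1430010_at (-0.15 to 0.026, the highest without amplified array 4). The spread difference of Nipbl 1442103_at was -0.017 with a pseudocount of 1. The difference between Smc2 1429658_a_at and 1429659_at was 0.14 with a pseudocount of 1, and that between Stag1 1421939_a_at and 1421940_at was -0.020 with a pseudocount of 64 and -0.026 under quantile normalization.

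With the replicate number as a block, 5 probe sets were higher and 19 lower, and Rec8 was the only named gene whose call was lost (adjusted p = 0.0677). Deviations of same-numbered arrays correlated at -0.0078 to 0.018, and 3 of 8 amplified arrays correlated best with their own number. These values cannot show whether same-numbered arrays share anything but a number. Intensities near 1 have no measured order, and fold changes there follow the pseudocount.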
